A study of Homo sapiens with 20 samples.

Results

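The 39 HOX genes of the 4 human clusters were followed through erythroid differentiation of HUDEP-2 cells, and all but 4 of them were silent or close to it. HOXB2, HOXB4, HOXB3 and HOXB7 held 97.1% to 100% of the HOX counts in each library, and no other HOX gene exceeded 20 counts in any library. HOXB4 and HOXB3 fell between day 0 and day 8 and fell again by day 12, HOXB7 was at 0 counts in both libraries of day 12, and HOXB2 was the only HOX gene above 1 TPM (a level corrected for transcript length and library size) in the day 12 libraries. The genes were found by their symbols (HOX, a cluster letter from A to D and a number), which matched 39 of the 46425 genes in the tables, with 76 RefSeq transcripts between them. They are 11 HOXA, 10 HOXB, 9 HOXC and 9 HOXD genes.

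HUDEP-2 is an immortalized erythroid progenitor line from umbilical cord blood that grows while doxycycline keeps viral oncogenes on and matures when moved to differentiation medium. The wild-type cells were sampled at day 0 in serum-free expansion medium with EPO, SCF, dexamethasone and doxycycline. On days 1 to 8 and day 12 they had been moved to medium with holo-transferrin, insulin, heparin, human serum, EPO, SCF and doxycycline. The methods list dexamethasone for the expansion medium only, so every comparison with day 0 spans both time and medium. SCF was withdrawn on day 6 and doxycycline on day 8, so the day 12 cells differ from all others in both time and medium. Each of the 10 days has 2 libraries of poly(A) RNA, 20 in all, and every comparison rests on 1 cell line. The study states 2 biological replicates for its own comparison of days 0 and 8. The labels number the replicates of each day but do not say whether they came from separate cultures. The tests measure the spread between these libraries, part of which may be technical.

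HOX genes encode homeodomain transcription factors that lie side by side in 4 clusters, in an order that mirrors where along the body axis, and roughly when, each is switched on in the embryo. In blood formation, genes of the HOXA and HOXB clusters are known for their activity in stem and progenitor cells and for being turned down as cells mature. HOXB4 is known for expanding blood stem cells when supplied in excess, and HOXA9 together with its partner MEIS1 for its role in acute leukaemia. The clusters are held open by KMT2A (MLL) complexes and held shut by Polycomb complexes, and HOX proteins bind DNA with partners of the TALE homeodomain class such as the PBX and MEIS proteins.

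One library of each day comes from the tables deposited for separate groups of days, called set 1 here, and the other from the table that spans all days, called set 2. Library totals ran from 52131713 to 70358198 counts. A gene with no count may still have a level of up to 3 counts, which is 0.0426 to 0.0575 CPM, the unit that divides a count by its library's size. Ribosomal RNA took 17.6% and 16.8% of the counts in the set 1 libraries of days 7 and 8 and 0.737% to 2.68% in the others, and globin genes took 28.2% and 33.7% on day 12. The TMM factors, which correct for such composition, were 0.544 and 0.464 on day 12, 0.843 and 0.805 in the set 1 libraries of days 7 and 8, and 0.983 to 1.17 elsewhere. All 7 erythroid markers, among them HBB, ALAS2 and GATA1, were at 1 TPM or more in every library and summed to 24500 to 478000 TPM. The lymphoid markers CD3E and MS4A1 and the platelet gene PF4 were at 0 throughout, and MPO, a granulocyte gene, never exceeded 3 counts. Among the other listed markers, LYZ reached 61 counts, CD14 29, the stromal gene PDGFRB 39 and the megakaryocyte gene GP9 9, none above 1.19 TPM. The megakaryocyte gene ITGA2B and the myeloid factor SPI1 were present at day 0, at 39.8 ± 41.2 and 29.6 ± 9.14 TPM (SD, n = 2), and stood at 0.216 ± 0.108 and 0.253 ± 0.181 TPM on day 8; their part in the HOX results was not tested.

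Of the 39 genes, 19 had no count in any of the 20 libraries. They are HOXA2 to HOXA7, HOXA11, HOXA13, HOXB13, HOXC4, HOXC11, HOXC13, HOXD1, HOXD3, HOXD4 and HOXD9 to HOXD12. Another 7 had counts that never exceeded 3 (HOXB1, HOXB8, HOXC5, HOXC6, HOXC8, HOXC12 and HOXD13), the level that a count of 0 also allows. The remaining 13 passed 3 counts in at least 1 library, and 9 of these never reached 1 TPM. The number of HOX genes over 3 counts was 3 to 10 in the libraries of set 1 and 2 to 6 in those of set 2, and the lowest number in each set was on day 12.

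**Figure D1:**
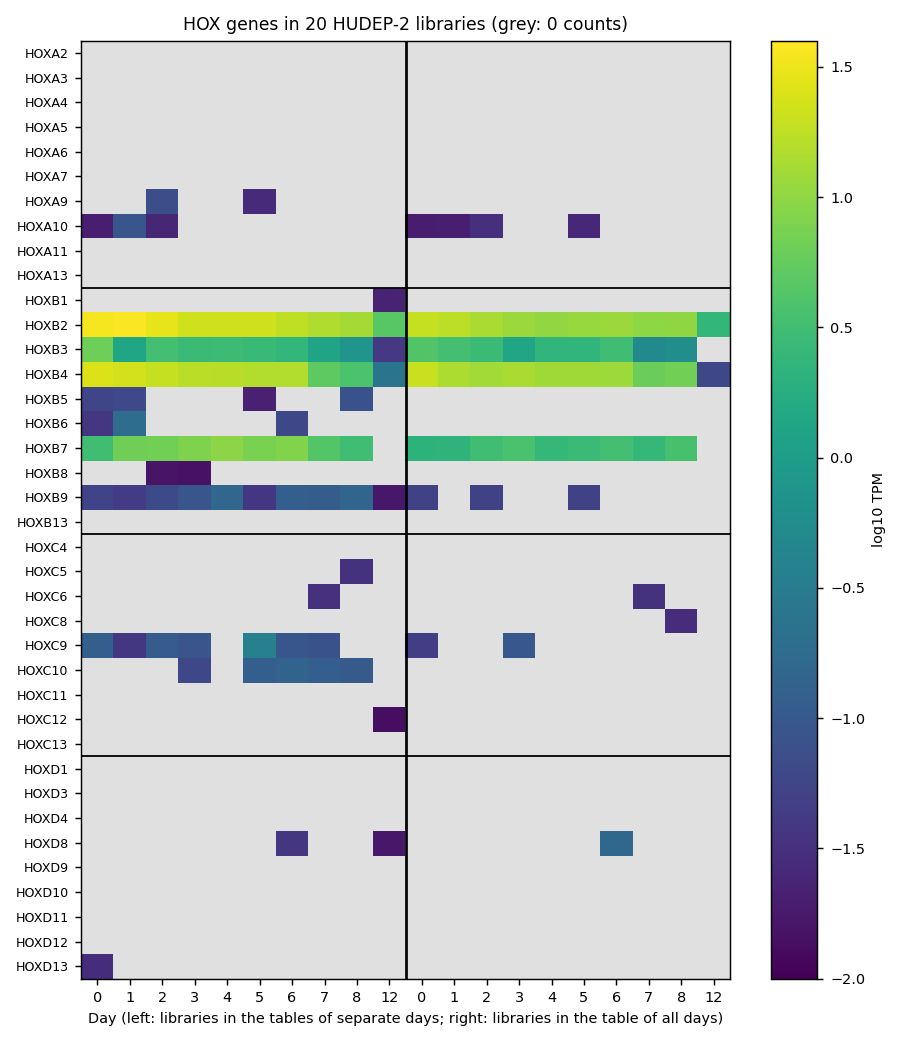
Level of the HOX genes shown (rows, in cluster order) in each library (columns, by day, set 1 on the left and set 2 on the right), as log10 TPM, with 0 counts in grey. HOXB2, HOXB3, HOXB4 and HOXB7 form the bright rows, and the HOXA, HOXC and HOXD rows are grey or dark.

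The HOXA cluster on chromosome 7, which carries the genes best known from stem cells and leukaemia, summed to at most 24 counts in a library. HOXA10 reached 9 counts and HOXA9 5. These counts are too few for a test, and none of the 11 genes passed the filter on low counts. The HOXC cluster on chromosome 12 summed to at most 29 counts, of which HOXC9 gave 20, in the set 1 library of day 5, and HOXC10 reached 10 counts, with all its counts in set 1. In the HOXD cluster on chromosome 2, only HOXD8 passed 3 counts, with 12 and 4 counts in the 2 libraries of day 6, 2 counts in the set 1 library of day 12 and 0 in the other 17. The 35 genes outside the 4 expressed ones had 338 counts over all libraries, 275 in set 1 and 63 in set 2.

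The HOXB cluster on chromosome 17 summed to 58.3 ± 18.3 TPM (SD, n = 2) on day 0, 37.0 ± 9.97 on day 6, 21.1 ± 0.283 on day 8 and 3.73 ± 1.73 on day 12. It held 98.9% to 100% of the HOX counts in each library, against at most 0.528% for HOXA, 1.08% for HOXC and 0.75% for HOXD. All 10 genes lie on the minus strand, and the expressed ones fall into 2 stretches: HOXB2, HOXB3 and HOXB4 stand next to each other, and HOXB7 starts 28881 bases beyond the end of HOXB4. The genes between them were nearly silent. HOXB5 had at most 6 counts and HOXB6 at most 14. HOXB8, on the other side of HOXB7, had at most 3. HOXB1, beside HOXB2 at the end of the cluster, had 3 counts in 1 library, and HOXB13, far out at the opposite end, had none.

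In hg38 coordinates of the deposited tables, HOXB2 spans chr17:48542655-48545031, HOXB3 chr17:48548870-48590272, HOXB4 chr17:48575507-48578350 and HOXB7 chr17:48607232-48611017. The span of HOXB3 includes that of HOXB4, since 3 of its 13 listed transcripts start beyond HOXB4. How reads shared by overlapping transcripts were divided is not given in the sources used here, so the division of reads between HOXB3 and HOXB4 is uncertain to that extent. HOXB4 and HOXB7 have 1 transcript each in the tables and HOXB2 has 2.

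The cluster also hosts microRNA genes that act on HOX messages. Their mature sequences are shown because they belong to this stretch, miR-10a between HOXB4 and HOXB5 and miR-196a beyond HOXB9, on the minus strand of chromosome 17 at 48579904 to 48579926 and 48632532 to 48632553 (RefSeq, GRCh38.p14). Capitals mark the seed, bases 2 to 8.
hsa-miR-10a-5p: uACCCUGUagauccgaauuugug
hsa-miR-196a-5p: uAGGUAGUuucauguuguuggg
The MIR10A and MIR196A1 rows had 0 counts in every library; the libraries were made from poly(A) RNA, in which mature microRNAs are not captured.

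Per length, HOXB2 and HOXB4 were the highest HOX genes. Both exceeded HOXB3 and HOXB7 in TPM in all 18 libraries of days 0 to 8. HOXB2 stood above HOXB4 in 15 of 20 libraries, 10 of 10 in set 1 and 5 of 10 in set 2, and their means differed by less than the SD of HOXB2 on day 0 (27.5 ± 11.4 against 22.8 ± 4.55 TPM, n = 2). HOXB7 lay above HOXB3 in 15 libraries, and on day 0 HOXB3 was the higher, at 5.28 ± 1.57 against 2.64 ± 0.765 TPM. By day 12 HOXB2 made up 94.3% and 97.6% of the summed TPM of the 4 genes in set 1 and set 2, after 49.9% and 42.9% on day 0.

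HOXB4, the member best known from stem cell expansion, had 1456 and 1176 counts on day 0 (set 1 and set 2), 1045 and 629 on day 6, 311 and 356 on day 7, 284 and 396 on day 8 and 22 and 7 on day 12. The day 0 libraries were above those of days 7, 8 and 12 in both sets. In TMM-normalized CPM the level was 18.5 ± 4.36 on day 0, between 12.3 ± 2.06 and 13.6 ± 4.46 on days 2 to 6, 6.53 ± 0.483 on day 7, 6.38 ± 1.78 on day 8 and 0.479 ± 0.326 on day 12 (SD, n = 2). HOXB4 fell from day 0 to day 8 with a log2 fold change of -1.52 ± 0.33 (SE) and an edgeR adjusted p of 0.03, and from day 8 to day 12 with -3.71 ± 0.48 and an adjusted p of 1.5e-05. In these bulk samples, fewer cells with a message and less message per cell cannot be told apart.

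HOXB3, which lies upstream of HOXB2 and encodes a factor of the same anterior group, had 646 and 618 counts on day 0, 378 and 366 on day 6, 169 and 147 on day 7, 180 and 180 on day 8 and 23 and 0 on day 12. The 2 sets were close on every day but the last, at ratios of 0.903 to 1.28 in TMM-normalized CPM from day 0 to day 8. HOXB3 fell from day 0 to day 8 (log2 fold change -1.38 ± 0.30, edgeR adjusted p = 0.032) and from day 8 to day 12 (-3.14 ± 0.73, adjusted p = 0.0022). In set 2, where day 12 had 0 counts, the limit of 3 counts puts its level at least 32.6-fold lower than that of day 8. Without that library the log2 fold change was -2.18 and still called, and it was not called by limma on log2(TPM + 1) (adjusted p = 0.055) or with only those days in the edgeR fit (0.078).

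**Figure D2:**
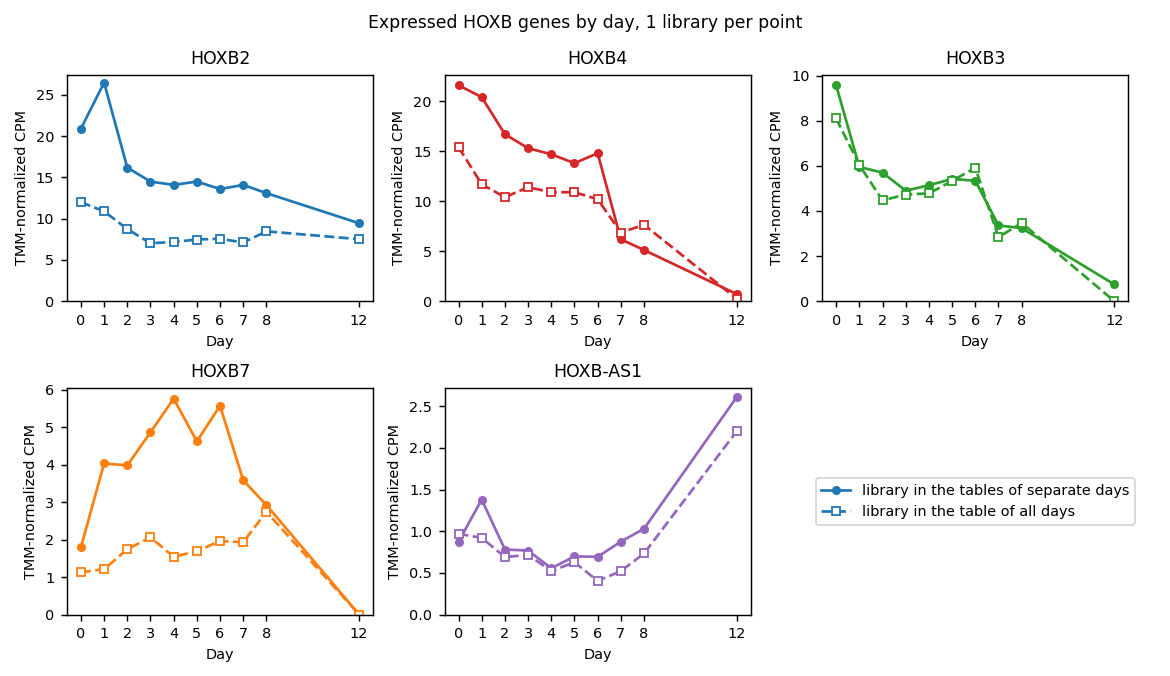
TMM-normalized CPM (y axis, from 0) of HOXB2, HOXB4, HOXB3, HOXB7 and the antisense transcript HOXB-AS1 by day (x axis), each point 1 library, set 1 as filled circles and set 2 as open squares. HOXB4 and HOXB3 are lower on day 7 than on day 6 in both sets, HOXB7 ends at 0, and HOXB-AS1 is highest on day 12 in both sets.

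HOXB2, at the HOXB1 end of the cluster, was the least reduced of the 4 by day 12 in TPM. It had 1413 and 913 counts on day 0, 726 and 439 on day 8 and 293 and 212 on day 12. The set 1 library was above the set 2 library on all 10 days in TMM-normalized CPM. Its log2 fold change was -0.60 ± 0.38 from day 0 to day 8 (edgeR adjusted p = 0.29) and -0.34 ± 0.57 from day 8 to day 12 (adjusted p = 0.64), neither past the threshold of 0.05. The day 12 value depends on the scale. In TPM, HOXB2 went from 11.6 ± 1.9 on day 8 to 3.54 ± 1.54 on day 12 (SD, n = 2), and limma on log2(TPM + 1) called it lower (log2 fold change -1.50, adjusted p = 0.025).

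The median of all genes moves with the scale in the same comparison, so changes are given beside it. Over 12863 genes with more than 3 counts in the 4 libraries of days 8 and 12, the median log2 difference between day 12 and day 8 was -0.05 in TMM-normalized CPM, -0.88 in CPM and -1.51 in TPM. Relative to that median, HOXB2 stood at -0.27, -0.27 and -0.26 on the 3 scales. HOXB4 stood at -3.85, -3.85 and -3.89. Between day 0 and day 8 the median over 14089 genes was 0.00 in TMM-normalized CPM, -0.38 in CPM and -0.60 in TPM, and HOXB4 stood -1.55, -1.55 and -1.54 from it. HOXB3 stood -1.40 from the median in CPM and -2.32 in TPM.

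HOXB7, which stands between the near-silent HOXB6 and HOXB8, had its highest level after day 0 in both sets. It had 121 and 86 counts on day 0, 436 and 109 on day 4, 394 and 121 on day 6, 162 and 142 on day 8 and 0 and 0 on day 12. In set 1 it peaked at 5.76 TMM-normalized CPM on day 4, against 1.79 on day 0, and in set 2 at 2.74 on day 8, against 1.13. Its log2 fold change was 1.27 ± 0.71 for days 4 to 6 against day 0 (edgeR adjusted p = 0.26) and 0.97 ± 0.46 for day 8 against day 0 (adjusted p = 0.17), so neither passed the test. Against the limit of 3 counts, the day 12 level was at least 30.2-fold lower than that of day 8 in set 1 and at least 25.7-fold lower in set 2, and the fall was called (adjusted p = 3.2e-04).

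HOXB9, the fifth member to pass the filter in the fit of 20 libraries, did so with 0 to 15 counts. It was seen in all 10 libraries of set 1, at 3 to 15 counts, and in 3 of 10 libraries of set 2, at 4 to 5. It was not called in any comparison between days, and the level lay near the limit of detection throughout.

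Each comparison can be read against the share of all genes called. Between day 0 and day 8, in the 4 libraries of those days, 4 HOX genes were tested and 2 were called, both lower, where 13.7% of 14829 genes were called lower and 25.1% in either direction. In the fit of all 20 libraries 5 were tested. For any difference among the 10 days 3 of them were called, HOXB3 (edgeR adjusted p = 0.013), HOXB4 (5.9e-05) and HOXB7 (0.015), where 66% of 16784 genes were called. Between day 8 and day 12 the same 3 genes were called, all lower, where 33.4% of genes were called lower and 57.2% in either direction, so loss by day 12 was common among all genes.

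The steps between neighbouring stages gave fewer calls. Day 1 against day 0 called none of the 5 HOX genes, with 0.393% of all genes called, and none had an unadjusted p under 0.05 or was called by DESeq2 or by edgeR's exact test. HOXB2 and HOXB-AS1 had differences of opposite sign in the 2 sets over that day, without a test. Days 4 to 6, the basophilic stage in the study's scheme, against day 0 called none, with 16.6% of all genes called (7.38% higher and 9.22% lower); the lowest unadjusted p was 0.088, for HOXB4 (log2 fold change -0.56 ± 0.31), while DESeq2 called HOXB3 and edgeR's exact test called HOXB3 and HOXB4. Day 8, the polychromatic stage, against days 4 to 6 called none, with 22.7% of all genes called. HOXB4 lay just outside the threshold there, at -0.97 ± 0.34 and an adjusted p of 0.052, was the only one with an unadjusted p under 0.05 (0.012), and was called by DESeq2 and by edgeR's exact test, as was HOXB3.

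The difference seen in the time course between days 6 and 7 was tested after its values had been seen. HOXB4 gave -0.93 ± 0.39 (edgeR adjusted p = 0.21, unadjusted p = 0.032) and HOXB3 -0.86 ± 0.63 (adjusted p = 0.49), where 2.57% of all genes were called, 1.69% as lower. DESeq2 called HOXB3 (adjusted p = 0.0085), as did limma on log2(TPM + 0.1) (0.049). HOXB4 was called by limma on log2(TPM + 1) (0.035), and edgeR's exact test called neither gene. SCF was withdrawn on day 6, and in set 1 the table of the library changes at the same point, from that of days 0 to 6 to that of days 7 and 8, together with the share of ribosomal RNA. In set 2, which has no such change of table, HOXB4 differed by -0.57 and HOXB3 by -1.06 on the log2 scale of TMM-normalized CPM, against -1.25 and -0.67 in set 1.

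**Figure D3:**
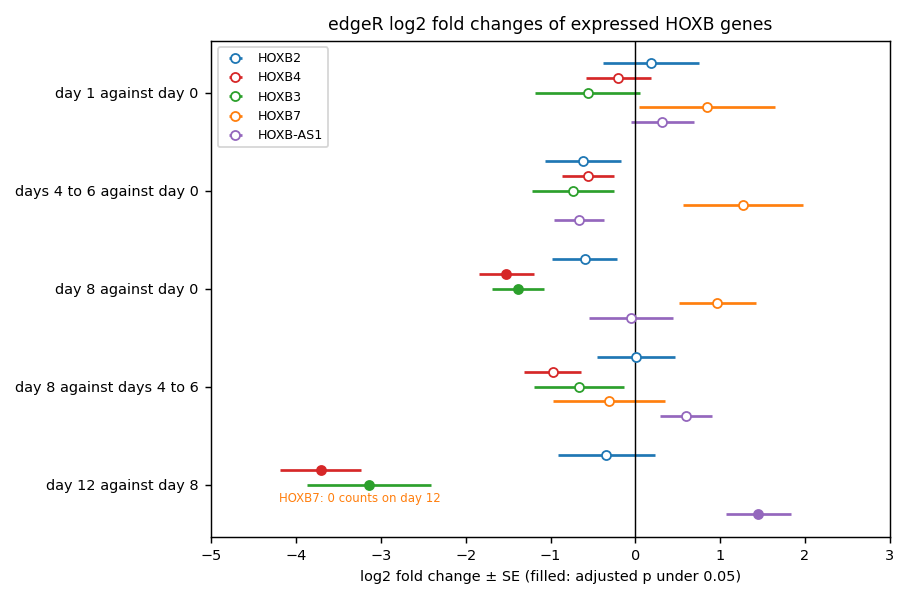
Log2 fold changes (x axis) with SE from edgeR for HOXB2, HOXB4, HOXB3, HOXB7 and HOXB-AS1 in 5 comparisons (y axis), filled where the adjusted p was under 0.05. HOXB4 and HOXB3 are filled on the left for day 8 against day 0 and day 12 against day 8, and HOXB-AS1 is filled on the right in the last; HOXB7 has no point there because both day 12 libraries had 0 counts.

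The fall of HOXB4 and HOXB3 between day 0 and day 8 had the same direction within each set, without a test, since a set has 1 library a day. In set 1 this comparison crosses a change of table, with ribosomal RNA at 1.46% of counts on day 0 and 16.8% on day 8. The part of that change in the fall was not tested. HOXB4 differed by -2.08 in set 1 and -1.01 in set 2, and HOXB3 by -1.56 and -1.22, on the log2 scale of TMM-normalized CPM. HOXB2 differed by -0.68 and -0.50, and HOXB7 by 0.70 and 1.28. Both calls rest on few libraries. They were lost when either day 0 library or the set 1 library of day 8 was left out and kept when the set 2 library of day 8 was, while the log2 fold changes ranged from -1.84 to -1.26 for HOXB4 and from -1.51 to -1.26 for HOXB3. HOXB3 lost its call with all 20 libraries in the fit (edgeR adjusted p = 0.1). Leaving out both set 1 libraries of days 7 and 8 was a choice made after seeing the data. It is here the same fit as leaving out the set 1 library of day 8, since day 7 is not in it. The log2 fold changes were -1.33 for HOXB3 and -1.26 for HOXB4.

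The sets differed in the level of several of these genes, against the spread left once each day's level was taken out. With the day as a factor, HOXB2 was higher in set 1 by 0.88 ± 0.08 on the log2 scale (edgeR adjusted p = 1.1e-05), HOXB7 by 1.19 ± 0.18 (3.6e-04), HOXB4 by 0.38 ± 0.13 (0.042) and HOXB9 by 2.72 ± 0.86 (0.027), in a test chosen after values had been seen, where 32.7% of all genes were called in either direction and 17.2% as higher in set 1. HOXB3 differed by 0.20 ± 0.21 (adjusted p = 0.51). With the set as a block, HOXB2 was called for any difference among the days (adjusted p = 0.0023) and as lower on days 4 to 6 than on day 0 (0.0046), and HOXB7 as higher on days 4 to 6 (0.022).

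**Figure D4:**
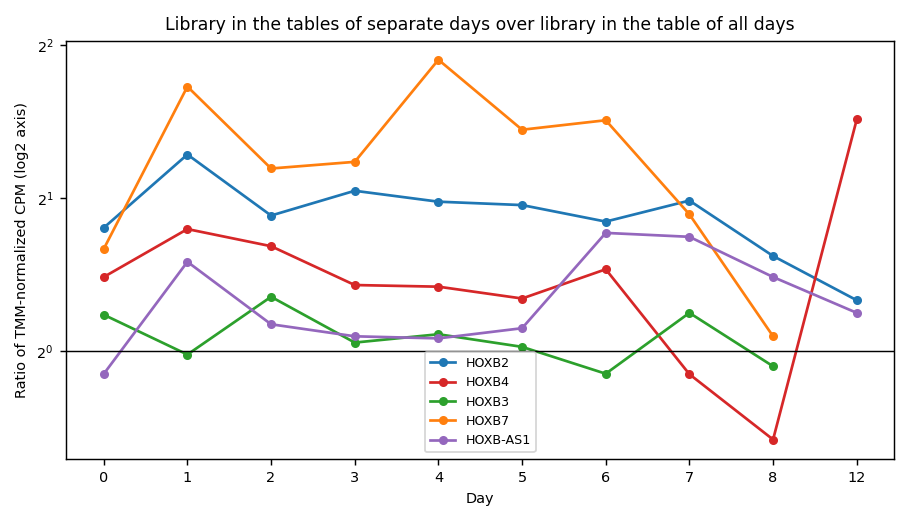
Ratio of the set 1 to the set 2 library of the same day (y axis, log2 axis, TMM-normalized CPM) by day (x axis) for 5 genes; ratios against 0 counts are left out. HOXB2 stays between 1.26 and 2.44, HOXB3 stays near 1, and HOXB4 is above 1 up to day 6 and below it on days 7 and 8.

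HOXB3 is also the gene whose TPM is least certain, because its counts moved between transcripts. Its 13 transcripts range from 2591 to 12866 nucleotides, 11 of them had counts in some library, and 7 different ones led in 1 library or another. In the set 1 library of day 0, the 2816-nucleotide XM_011524726 held 57.7% of the counts, while on day 1 the 10769-nucleotide XM_011524720 held 86.2%. The 2 libraries of a day rarely had the same leader. The mean length weighted by counts ranged from 4240 to 12900 nucleotides, and TPM per CPM changed with it, so the gene's counts are the steadier measure. On day 12 all 23 counts of set 1 lay in XM_017024560, the longest transcript and 1 of those that span HOXB4. With the curated transcripts alone, HOXB3 was called in no comparison. Those transcripts had 0 HOXB3 counts in every library of days 8 and 12 and in the set 1 library of day 0. They could therefore not show whether HOXB3 fell between those days. HOXB4, under the same setting, missed the threshold for day 8 against day 0 (edgeR adjusted p = 0.063) but was called for day 12 against day 8.

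**Figure D5:**
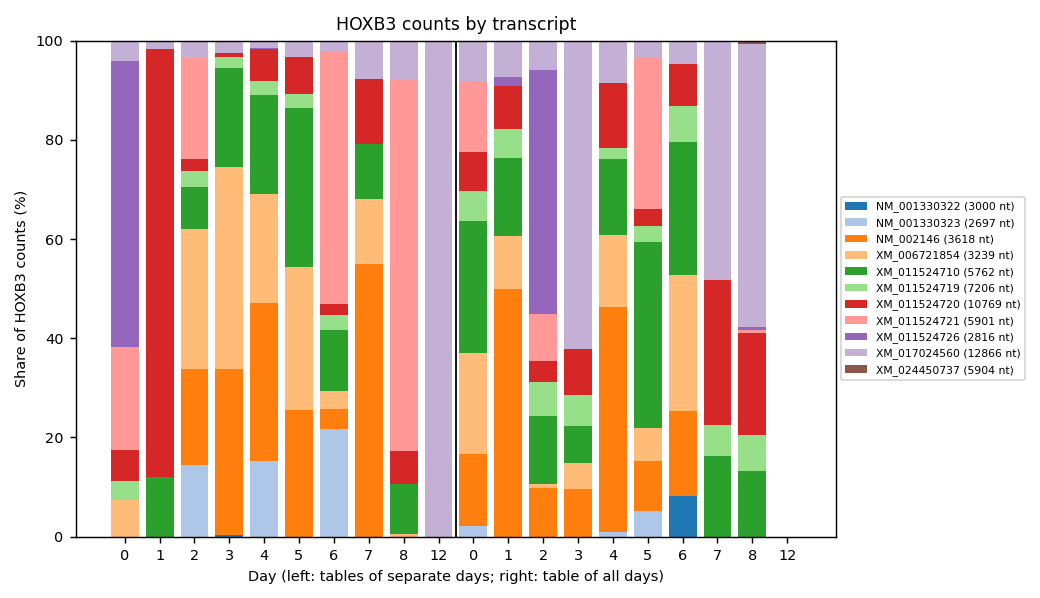
Share of the HOXB3 counts (y axis, percent) in each of its transcripts with counts (colours, with length in nucleotides) in each library (x axis, by day, set 1 left and set 2 right); the set 2 library of day 12 has no counts and no bar. The leading transcript changes between libraries of the same day and of neighbouring days.

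HOXB-AS1 was the only other transcript of the clusters to pass the filter, of 26 antisense, long non-coding, readthrough and microRNA genes listed. Of these, 23 were in the tables and 20 never exceeded 3 counts, among them HOTAIR and HOTTIP; HOTAIRM1 reached 11 counts and HOXA11-AS 4. HOXB-AS1 lies on the plus strand at chr17:48544351-48551241 and shares 681 bases of its span with HOXB2 and 2372 with HOXB3. The kit keeps the strand, but whether the counting used it is not given in the sources used here, so reads of HOXB-AS1 and of these genes may not be told apart. It had 59 and 74 counts on day 0, 57 and 38 on day 8 and 81 and 62 on day 12. The day 12 libraries were the highest of each set in TMM-normalized CPM, at 2.61 and 2.2, against 1.03 and 0.733 on day 8. The difference from day 8 was called (log2 fold change 1.45 ± 0.38, edgeR adjusted p = 0.0054) in TMM-normalized counts. With only those days in the edgeR fit it was not called (1.51, adjusted p = 0.06). Neither limma on log2(TPM + 1) nor limma on log2(TPM + 0.1) called it (adjusted p = 0.93 and 0.95). With a library left out, the log2 fold change ranged from 1.21 to 1.70. In TPM the difference was 0.24 in set 1 and -0.17 in set 2, so the direction in set 2 flips with the scale. Relative to the median of all genes it was 1.52 in TMM-normalized CPM and 1.54 in TPM.

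The partners of HOX proteins were partly present. MEIS1, the partner of HOXA9, had no counts in any library. PBX2 was the highest of the TALE class on day 0, at 76.5 ± 6.21 TPM (SD, n = 2), followed by TGIF1, TGIF2, PBX3, PKNOX1 and MEIS2 at 23.5 to 7.66 TPM. Of 11 genes listed, 7 were tested, and for day 8 against day 0 PBX2 was called higher (log2 fold change 1.00 ± 0.16, edgeR adjusted p = 0.017) and the repressor TGIF2 lower (-3.44 ± 0.40, 0.0092). These were 28.6% of the 7, where 25.1% of all genes were called. By day 12, 2 rose and 2 fell against day 8, 57.1% of the 7 tested, close to the 57.2% of all genes called. The repressor TGIF1 rose (2.29 ± 0.26, adjusted p = 5.9e-06), while PBX3 (-1.60 ± 0.26, 1.4e-04) and PKNOX1 (-0.89 ± 0.19, 0.0012) fell. PBX2 was called higher in TMM-normalized counts (0.39 ± 0.12, 0.014) and was lower in TPM, at 99.6 ± 6.88 on day 8 and 49.1 ± 17.0 on day 12. The median log2 fold change of the 7 was 0.29 and 0.39 in these comparisons, where all genes had medians of -0.01 and -0.20.

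Of 22 genes of the complexes that keep HOX loci active, the homeodomain activators CDX1, CDX2 and CDX4 had no counts. The other 19 were tested. Against day 0, 4 were called on day 8, 21.1% of the 19, where 25.1% of all genes were called. The histone demethylase KDM6A rose (log2 fold change 1.44 ± 0.21, edgeR adjusted p = 0.014), as did ASH2L (0.62 ± 0.16, 0.041), and the elongation factor MLLT1 fell (-1.03 ± 0.15, 0.015), as did MEN1 (-0.76 ± 0.19, 0.042), the menin subunit of the KMT2A complex. On day 12, 12 were higher and 6 lower than on day 8 in TMM-normalized counts, where 23.8% of all genes were called higher and 33.4% lower, with a median log2 fold change of 0.84, but 7 of the 12 were lower in mean TPM and 3 in mean CPM. KDM6B rose most (2.49 ± 0.34, adjusted p = 2.9e-05), followed by AFF1 (1.89 ± 0.20, 3.2e-06) and KDM6A (1.86 ± 0.13, 6.9e-08), while the chromatin reader PSIP1 fell (-2.29 ± 0.18, 1.4e-07).

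All 25 Polycomb genes listed were tested, with 5 higher and 3 lower on day 8 than on day 0 and a median log2 fold change of 0.51 (EZH2, 1 of the 5, was lower in mean TPM). The share called was 32% of the 25, against 25.1% of all genes. CBX7, a subunit of Polycomb complex 1, rose most (log2 fold change 3.86 ± 0.38, edgeR adjusted p = 0.0073), from 2.09 ± 0.0789 to 19.4 ± 6.05 TPM. PCGF2 fell (-2.87 ± 0.55, 0.024), EZH1, one of the histone H3 lysine methyltransferases of complex 2, rose (1.91 ± 0.23, 0.0099), and the scaffold gene PHC2 rose (1.25 ± 0.18, 0.014). On day 12, 6 were higher and 14 lower than on day 8, against the same 23.8% and 33.4% of all genes, with a median of -1.16; 3 of the 6 were lower in mean TPM, and none of the 14 was higher in TPM or CPM. PCGF2 went from 39 counts in each library to 0, at least 7.26-fold and 7.07-fold lower. CBX2 went from 822 and 817 counts to 12 and 0. PHF19 and RBBP7, of complex 2, fell by 3.85 ± 0.18 (adjusted p = 1.1e-09) and 3.26 ± 0.12 (2.2e-10) on the log2 scale.

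Many genes that flank the clusters were expressed. Of 15 listed, 14 were in the tables and 5 of those never exceeded 3 counts, among them EVX1 and EVX2 at the ends of HOXA and HOXD, and PRAC1 and PRAC2 near HOXB13. For day 8 against day 0, 8 were tested and 3 called, all higher, among them CALCOCO2 beside HOXB (log2 fold change 1.22 ± 0.17, edgeR adjusted p = 0.013), CALCOCO1 beside HOXC (1.95 ± 0.28, 0.013) and LNPK beside HOXD (1.14 ± 0.19, 0.018), with a median of 0.63 over the list. The calls were 37.5% of the 8, where 25.1% of all genes were called and 11.5% called higher. By day 12 all 9 tested were called against day 8, where 57.2% of all genes were, 3 higher, of which CALCOCO2 and HIBADH were lower in mean TPM, and 6 lower, with a median of -1.17, or -0.62 with SKAP1, at 0 counts on day 12, set at its bound. CALCOCO1 rose again (2.83 ± 0.24, 3.3e-07), and CBX5 beside HOXC (-3.62 ± 0.35, 1.1e-06) and SKAP2 beside HOXA (-2.81 ± 0.27, 9.9e-07) fell.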

How the data were processed

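Poly(A) RNA of HUDEP-2 cells was sequenced on 10 days, 2 libraries a day, with a stranded TruSeq kit on a NovaSeq. Per the submitters' processing notes and the methods, the authors used Trimmomatic 0.38, HISAT2 2.1.0 (hg38) and StringTie 2.1.3b. The deposited tables hold, for 170322 RefSeq transcripts, whole-number read counts and TPM that the authors scaled for transcript length and library. Left unused were 23 columns, those of FPKM and of an extra day 0 set. The labels did not tie that extra set to a sample, so the pair of day 0 libraries used was a choice. No fit included the extra set.

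Transcripts were summed by symbol. Tests used edgeR 4.0.16 in R 4.3.3 (filterByExpr, TMM, quasi-likelihood F test), with Benjamini-Hochberg adjustment over all genes tested and a threshold of 0.05. Day 8 against day 0 used 4 libraries and all else 20. The SE was taken from F, as |log2 fold change| over its root. Alternatives used edgeR's exact test, DESeq2 1.42.0 and limma 3.58.1 on TPM. On simulated data, edgeR recovered 65.5% of 200 genes changed 4-fold for day 8 against day 0 among 14558 genes, with 4.38% of calls false. The simulation gave all genes a common spread and no difference between the sets, so these rates need not hold for the real data. The 2 libraries of a day were distinct: 64.4% to 77.2% of genes differed beyond sampling noise. Intervals and limits cover counting error only. All HOX genes entered the counts, and a few single genes are not reported here; those passing filterByExpr in the fit of 20 libraries were named with values, and from other lists at most 4 called members with the largest log2 fold changes in a comparison, beside counts. The genes and lists were chosen with earlier results of these data known.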

Additional observations from a re-analysis of the deposited data

Results flagged for a closer look

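In 6 of 28 comparisons of a gene in which both sets gave a value, the 2 sets differed in opposite directions on the log2 scale of TMM-normalized CPM. Each set has 1 library a day, so these differences were not tested. HOXB2 differed by 0.34 in set 1 and -0.14 in set 2 for day 1 against day 0, by -0.11 and 0.19 for day 8 against days 4 to 6, and by 0.049 and -0.088 for day 7 against day 6. HOXB7 differed by -0.86 and 0.67 for day 8 against days 4 to 6, the widest split. HOXB-AS1 differed by 0.23 and -0.40 for day 8 against day 0 and by 0.66 and -0.076 for day 1 against day 0. No library of days 4 to 6 stood apart from the others in the level of the 6 genes examined for it.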

How the results depend on the processing

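Counts of HOX genes called moved as follows. For day 8 against day 0, where 2 were called, 0 were called with curated transcripts only or without both libraries of the table of days 7 and 8 (an alternative chosen after seeing the data), 1 with all 20 libraries in the fit, and 0 to 2 when a library was left out. For any difference among the days, 3 became 0 with at least 10 counts in every library, a filter that, of the 39, only HOXB2 passed in the fit of 20 libraries, and 2 to 3 when a library was left out; HOXB7 lost its call without either day 12 library. For day 12 against day 8, 3 became 0 under that filter and stayed at 3 when a library was left out. For days 4 to 6 against day 0, 0 became 2 with the library set as a block or edgeR's exact test and 1 with DESeq2, limma on log2(TPM + 1) or only those days in the fit. For day 8 against days 4 to 6, 0 became 1 with no filter beyond 1 count, the set block or only those days in the fit, and 2 with DESeq2, the exact test or limma with pseudocounts of 1 or 0.1. For day 7 against day 6, 0 became 1 with DESeq2 or either limma fit. Between the sets, 4 became 1 with at least 10 counts in every library and 2 with curated transcripts only. Leaving out a library made no HOX call for day 1 against day 0 (0 to 0), days 4 to 6 against day 0, day 8 against days 4 to 6 or day 7 against day 6. The log2 change of the HOXB sum was -1.43 in TPM and -0.92 in TMM-normalized CPM for day 8 against day 0, and -2.58 and -1.34 for day 12 against day 8. The causes were not tested. Values that changed sign had an adjusted p of 0.4 or more under the alternative. They were, for HOXB2, -0.017 and -0.019 (limma) for day 1 against day 0, and -0.021 (no filter), -0.004 (without globin genes), -0.007 (DESeq2), -0.37 and -0.39 (limma) and -0.34 (without the table of days 7 and 8) for day 8 against days 4 to 6; and for HOXB3 with curated transcripts, 1.12 for day 1 and 1.16 for days 4 to 6 against day 0. For day 7 against day 6, HOXB2 was 0.001 as reported and -0.015 (no filter), -0.006 (without globin genes), -0.204 (curated transcripts), -0.018 (set block), -0.009 (DESeq2), -0.246 and -0.262 (limma) and -0.573 (without the table of days 7 and 8), under which HOXB-AS1 was -0.077. HOXB9, at 0 to 15 counts, was -0.164 (set block) and -0.012 (limma) for days 4 to 6 against day 0, -0.004 and -0.020 (limma) for day 7 against day 6 and, without the table of days 7 and 8, -5.33 for day 8 against days 4 to 6, 4.72 for day 12 against day 8 and -5.38 for day 7 against day 6. With a library left out, HOXB2 ranged from -0.59 to 0.69, HOXB4 from -0.65 to 0.15, HOXB7 from -0.27 to 1.47 and HOXB-AS1 from -0.001 to 0.58 for day 1 against day 0. For day 8 against days 4 to 6, HOXB2 ranged from -0.35 to 0.28 and HOXB7 from -0.54 to 0.10, and HOXB-AS1 from -0.31 to 0.17 for day 8 against day 0. For day 7 against day 6, HOXB2 ranged from -0.572 to 0.485, HOXB7 from -1.02 to 0.49, HOXB9 from -5.36 to 5.51 and HOXB-AS1 from -0.077 to 0.785. HOXB9 ranged from -4.84 to 0.18 for day 1 and from -1.41 to 0.77 for days 4 to 6 against day 0, from -5.31 to 2.66 for day 8 against days 4 to 6 and from -6.16 to 4.69 for day 12 against day 8.

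No paired analysis was possible because the columns do not carry the labels' replicate numbers. This concerns pairing by number only, and the fit with the library set as a block pairs the libraries by set. Depth limits the genes at 0 to 3 counts, for which absence and a level under the limit of 3 counts cannot be told apart.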
